A study of Mus musculus with 6 samples.

Results

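The miR-23/27/24 clusters are 2 groups of microRNA hairpins in the mouse genome, miR-23a/27a/24-2 and miR-23b/27b/24-1. Their products were followed in microRNA (miRNA) libraries of extracellular vesicles, the membrane-bound particles that cells release, isolated from mouse brain. The members were chosen by name, as the 5 guide strands (3p arms) miR-23a-3p, miR-23b-3p, miR-27a-3p, miR-27b-3p and miR-24-3p and their 6 passenger strands (5p arms). The deposited table holds these 11 names in 9 of its 1926 rows, because miR-23a-3p/23b-3p and miR-27a-3p/27b-3p are merged entries. Of the 9 rows, 8 were above 0 in at least 1 library, and 4 had a mean of at least 10 RPM, the minimum for a test: the 3 guide entries and miR-27b-5p. RPM, the unit of the deposited values, expresses how often a miRNA was sequenced relative to all miRNA reads in the same library. The SE group holds 3 vesicle libraries from mice that had gone through status epilepticus, a prolonged seizure, and the CON group holds 3 from matched control mice, with 24 hr given as the time in the series title. No strain, sex, age, genotype, seizure-inducing agent or cell type of origin is given in the sources used here.

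Each of the clusters encodes a miR-23, a miR-27 and a miR-24 hairpin on one primary transcript. Dicer cuts each hairpin into a pair of strands, and the strand kept in Argonaute, here the 3p arm, recognises messenger RNAs mainly through its seed, bases 2 to 8. As background, the clusters are known from endothelial cells, where miR-23 and miR-27 act in vessel growth. They are also known from astrocytes, from the control of cell death in neurons (miR-23 and miR-27) and from cell cycle exit (miR-24).

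The mature sequences show which products sequencing can tell apart, with the seed in capitals. RefSeq (GRCm38.p6) gave sequences for 10 of the 11 names. The exception was miR-23b-3p.
miR-23a-3p: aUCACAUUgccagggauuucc
miR-27a-3p: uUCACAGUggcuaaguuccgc
miR-27b-3p: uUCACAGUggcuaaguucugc
miR-24-3p: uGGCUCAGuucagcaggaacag
miR-23a-5p: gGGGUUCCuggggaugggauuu
miR-23b-5p: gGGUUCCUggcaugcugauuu
miR-27a-5p: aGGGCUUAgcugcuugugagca
miR-27b-5p: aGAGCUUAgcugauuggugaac
miR-24-1-5p: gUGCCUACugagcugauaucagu
miR-24-2-5p: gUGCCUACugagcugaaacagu

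miR-27a-3p and miR-27b-3p share their seed and 20 of 21 bases, and differ by C19U, counted from 1 at the 5′ end with the base of miR-27a-3p first. miR-24-3p is the same 22 bases from both clusters. Because the deposited table merges the a and b names of miR-23 and miR-27, and miR-24-3p is one sequence, the guide entries do not show which cluster a read came from. The seeds of miR-23a-3p and miR-27a-3p differ by U7G, with the base of miR-23a-3p first. The passenger strands do separate the clusters. miR-27a-5p and miR-27b-5p agree at 14 of 22 bases and differ inside the seed by G3A. miR-24-2-5p and miR-24-1-5p agree at 17 of the first 22 bases, seed included.

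The hairpins of the miR-27 pair and of the miR-24 pair are shown with both mature arms in capitals, 5p arm first, since the reads of both arms are compared further on.
Mir27a: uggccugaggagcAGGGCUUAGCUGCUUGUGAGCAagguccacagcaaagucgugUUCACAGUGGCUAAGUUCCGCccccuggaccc
Mir27b: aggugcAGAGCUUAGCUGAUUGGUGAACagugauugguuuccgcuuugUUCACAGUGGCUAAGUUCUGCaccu
Mir24-2: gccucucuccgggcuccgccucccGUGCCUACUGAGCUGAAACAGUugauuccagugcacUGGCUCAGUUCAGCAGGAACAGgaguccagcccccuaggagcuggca
Mir24-1: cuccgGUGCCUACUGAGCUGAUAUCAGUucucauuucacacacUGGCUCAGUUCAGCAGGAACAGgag

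In GRCm38.p6 the miR-23a/27a/24-2 cluster spans 404 bases on the plus strand of chromosome 8 (84208518 to 84208921). Its miR-23a and miR-27a hairpins lie outside other annotated genes, and the end of the miR-24-2 hairpin overlaps the start of the lincRNA Gm26532 (GENCODE vM21). The miR-23b/27b/24-1 cluster spans 792 bases on the plus strand of chromosome 13 (63300484 to 63301275), within the protein-coding gene 2010111I01Rik on the same strand and Fancc on the opposite strand. There the miR-23b hairpin is intronic, and the miR-27b and miR-24-1 hairpins overlap annotated exons of 2010111I01Rik transcripts. The deposited files give no coordinates. The build named in the submitters' processing notes is mm9, so these positions locate the reference hairpins only.

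The libraries held 5482407 to 10845434 miRNA reads. SE replicate 1 was the deepest. Whether the replicates of a group are separate animals is not in the labels. The p-values therefore speak of the spread among these libraries, which may be technical. The names in the deposited table of RPM values go with its SE columns only, and the CON rows were put back under their names through the base means of the authors' deposited fold change table (see the processing part). For 316 miRNAs, the CON over SE ratios after this step were set against the log2 fold changes of the authors' deposited table. They differed by a median of 0.0016 and at most 0.016. The step had not used those fold changes, but the base means and the SE reads nearly fix this ratio. The closeness therefore does not check which CON row was matched. With the names left as they were, the median difference was 0.15. The brain labels were checked against marker miRNAs. The neuronal miR-124-3p, miR-9-5p, miR-128-3p and miR-138-5p stood between 2071 and 8020 RPM in the group means. Of the oligodendrocyte markers, miR-338-3p had 256 RPM in SE and 363 RPM in CON, while miR-219a-5p had 0.291 RPM in SE and was at 0 in CON. The red cell miR-451a was at 0 in SE and 0.307 RPM in CON, and miR-144-3p was at 0 in all 6 libraries. A further red cell marker, the merged entry of miR-486a-5p and miR-486b-5p, had 24.8 RPM in SE and 25.4 RPM in CON. The liver miR-122-5p had 97.5 RPM in SE and 186 RPM in CON, without overlap, and a limma adjusted p of 0.0504. The muscle miR-1a-3p had 152 RPM in SE and 201 RPM in CON, also without overlap, with a limma adjusted p of 0.607. Of all 290 tested miRNAs, 14.8% were without overlap. The other muscle marker, the merged entry miR-133a-3p/133b-3p, overlapped, with 0.665 to 2.09 RPM in SE and 0.922 to 2.92 RPM in CON. The myeloid miR-142a-3p (9.68 RPM in SE, 10.3 RPM in CON) and miR-223-3p (6.24 and 6.76 RPM) overlapped as well. The part of these other tissues and cells in the values of the cluster members was not tested.

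miR-24-3p was the most abundant product of the clusters. It stood at 2934, 2871 and 2682 RPM in SE replicates 1 to 3 and at 3197, 3181 and 2843 RPM in CON replicates 1 to 3. The groups overlapped, with CON replicate 3 below 2 of the SE libraries. The means were 2829 RPM ± 131 (SD, n = 3) for the SE libraries and 3074 RPM ± 200 (SD, n = 3) for the CON libraries. By mean level it ranked 28 among the 775 miRNAs above 0. Its highest library was 1.19-fold above its lowest, and 7 of the 290 tested miRNAs had a smaller residual standard deviation. The log2 fold change, SE over CON, was -0.12 (standard error 0.15), with a 95% interval from -0.43 to 0.19 and a limma adjusted p of 0.871. The interval corresponds to SE levels between 0.743-fold and 1.14-fold of CON. The direction flipped with quantile normalization, which gave 0.11.

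The entry miR-23a-3p/23b-3p came next. It read 601, 592 and 537 RPM in SE replicates 1 to 3, against 703, 482 and 478 RPM in CON replicates 1 to 3. All 3 SE libraries lay between the highest CON library and the other two. The means were 577 RPM ± 34.4 (SD, n = 3) for the SE libraries and 554 RPM ± 129 (SD, n = 3) for the CON libraries. This gave a log2 fold change of 0.08 (standard error 0.20), a 95% interval from -0.34 to 0.50 and a limma adjusted p of 0.935. CON replicate 1 pulled the CON mean up. Leaving it out gave 0.26, and leaving out CON replicate 2 or CON replicate 3 gave -0.01.

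For miR-27a-3p/27b-3p the SE libraries held 354, 392 and 332 RPM and the CON libraries 653, 319 and 415 RPM, in the order of the replicates. CON replicate 1 was the highest of the 6 and CON replicate 2 the lowest, so the SE range lay inside the CON range. The means were 360 RPM ± 30.1 (SD, n = 3) for the SE libraries and 462 RPM ± 172 (SD, n = 3) for the CON libraries. The log2 fold change was -0.30 (standard error 0.23), the largest in size among the 4 tested members, with a 95% interval from -0.80 to 0.19 and a limma adjusted p of 0.824. Of the 290 tested miRNAs, 67 had a larger absolute value.

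The size of the miR-27 difference depended on which CON libraries were in the fit. The log2 fold change was -0.02 with CON replicate 1 left out, and -0.54 with CON replicate 2 left out, where the limma adjusted p was 0.268. Over the 17 alternatives for this entry the limma adjusted p was 0.268 or more. Its highest value came from the fit with the CON names left as in the file, where the CON values belong to another miRNA. The next highest was 0.993, without CON replicate 3. The 3651 miR-27 reads of CON replicate 1 give a 95% Wilson interval from 632 to 674 RPM, which covers counting error only and does not reach the value of any other library. This library stood at 1.78-fold the mean of the other CON libraries. At least this excess was seen in CON replicate 1 for 12 of the 290 tested miRNAs (4.14%), and in the other libraries, each against its own group, for 0 to 10. For miR-23a-3p/23b-3p the same library was at 1.46-fold and for miR-24-3p at 1.06-fold of the other CON libraries, while miR-27b-5p was at 0.828-fold.

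**Figure D1:**
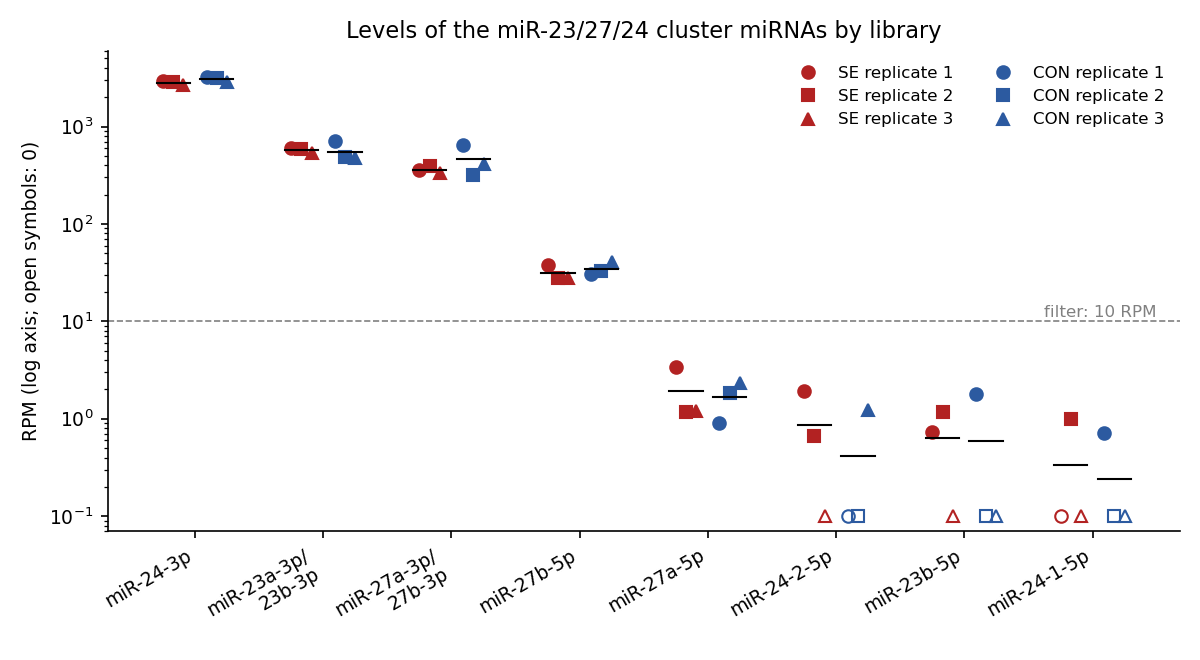
RPM of the 8 detected cluster miRNAs (log axis) in the 3 SE and 3 CON libraries, with a bar at each group mean, open symbols for a value of 0 and a dashed line at the test minimum of 10 RPM. The levels run from a mean of 2951 RPM for miR-24-3p to under 1 RPM for miR-24-1-5p, and the miR-27 guide of CON replicate 1 sits above the other 5 libraries.

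miR-27b-5p was the one passenger strand above the test minimum. SE replicates 1 to 3 had 38.3, 27.8 and 27.8 RPM and CON replicates 1 to 3 had 30.4, 33.0 and 40.4 RPM. The groups overlapped. The SE mean was 31.3 RPM ± 6.05 (SD, n = 3) and the CON mean 34.6 RPM ± 5.21 (SD, n = 3). limma gave a log2 fold change of -0.15 (standard error 0.23), a 95% interval from -0.64 to 0.34 and an adjusted p of 0.887. Without SE replicate 1 it was -0.30 and without CON replicate 3 it was -0.03.

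The other passenger strands rested on few reads. A value of 0 allows up to 0.277 to 0.547 RPM by library, the level of 3 reads. The lowest listed value stood for 2 reads, so a 0 may also hide a single read. miR-27a-5p had 37, 7 and 8 reads in SE replicates 1 to 3 and 5, 10 and 15 in CON replicates 1 to 3, which is 1.92 RPM ± 1.29 (SD, n = 3) for the SE libraries and 1.67 RPM ± 0.718 (SD, n = 3) for the CON libraries. miR-24-2-5p was seen in 3 libraries, with 21 and 4 reads in SE replicates 1 and 2 and 8 reads in CON replicate 3. miR-23b-5p had 8 and 7 reads in SE replicates 1 and 2 and 10 reads in CON replicate 1. miR-24-1-5p had 6 reads in SE replicate 2 and 4 in CON replicate 1. miR-23a-5p was at 0 in all 6 libraries. None of these 5 rows was tested in the main fit. The alternative with no filter, which took in those of them above 0, called 0 members by limma-trend. A difference between the groups would not have been detectable at this depth in the rows with 0 in most libraries.

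The order of the group means was miR-24-3p, miR-23a-3p/23b-3p, miR-27a-3p/27b-3p, miR-27b-5p and miR-27a-5p in both groups, and dividing by length left it the same. miR-24-2-5p, miR-23b-5p and miR-24-1-5p followed at 0.867, 0.634 and 0.332 RPM in SE and at 0.410, 0.596 and 0.238 RPM in CON, with ranges that overlapped each other. The range of miR-24-2-5p also overlapped that of miR-27a-5p in both groups, while miR-24-1-5p lay below miR-27a-5p in both. miR-23b-5p overlapped miR-27a-5p in CON, and in SE its highest value equalled the lowest of miR-27a-5p. The guide entries miR-23a-3p/23b-3p and miR-27a-3p/27b-3p did not overlap in the SE libraries. They did in the CON libraries, although miR-23 was above miR-27 within each of the 6 libraries. Each of the other neighbours down to miR-27a-5p was separated in all libraries.

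0 of the 4 tested members differed between SE and CON by limma-trend at an adjusted p under 0.05, against 1.03% of the 290 miRNAs tested, which is 3 miRNAs. At an unadjusted p under 0.05 the count was also 0 of 4, against 27 of 290 (9.31%), and limma-voom on read numbers called 0 of 4 as well. The SE and CON values of 0 of the 4 members were free of overlap, against 14.8% of all tested. 3 members had a negative log2 fold change and 1 a positive one, with a median of -0.13 beside -0.07 over all tested. Median-of-ratios scaling moved the median of all tested to 0.03 and the members to -0.01 (miR-24-3p), 0.18 (miR-23a-3p/23b-3p), -0.20 (miR-27a-3p/27b-3p) and -0.05 (miR-27b-5p). A p above the threshold does not show equal levels, and the 95% intervals above give the changes that remain possible. A lower share of reads can come from fewer vesicles of a cell type or from less of the miRNA per vesicle, which cannot be told apart here. Directions rest on the column labels, for which the data hold no check.

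**Figure D2:**
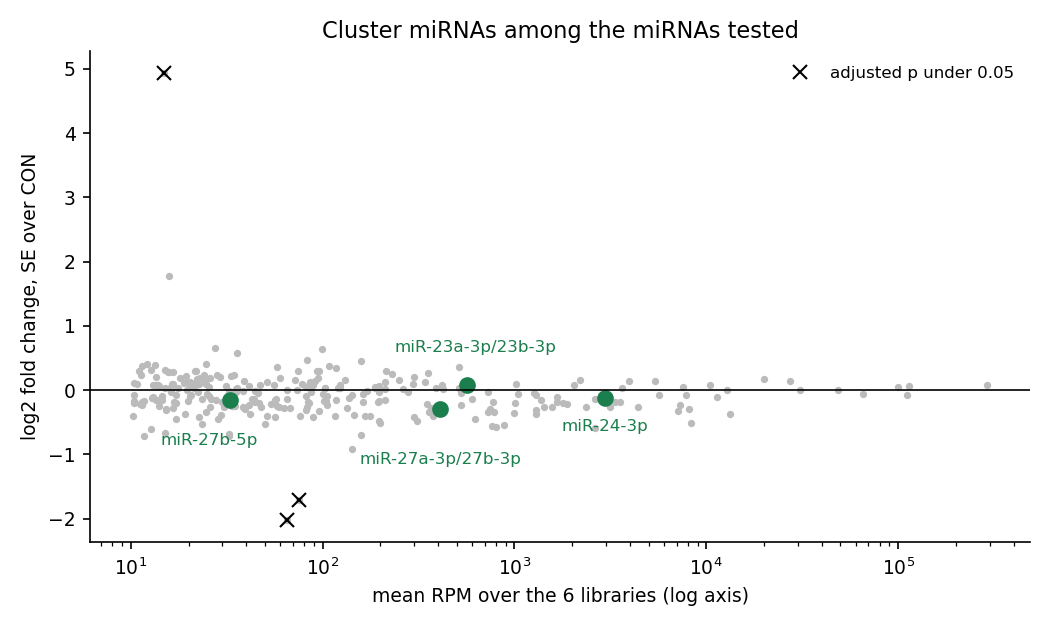
Log2 fold change, SE over CON, against the mean RPM over the 6 libraries (log axis) for the 290 miRNAs tested by limma-trend, with the 4 tested cluster members in green and crosses on the 3 miRNAs with an adjusted p under 0.05. The cluster members lie between -0.30 and 0.08, inside the band that holds most miRNAs.

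The authors' deposited table gives a fold change for 8 of the 9 member rows, of which 0 pass an adjusted p under 0.05, against 1.04% of the 772 miRNAs with an adjusted p. That table names no direction. Its signs match CON over SE after the CON rows were put back, which makes a positive sign a higher level in CON. The authors' deposited table gives a log2 fold change of 0.02 (standard error 0.10) for miR-24-3p, -0.17 (0.17) for miR-23a-3p/23b-3p, 0.24 (0.26) for miR-27a-3p/27b-3p and 0.05 (0.22) for miR-27b-5p. The adjusted p of the 8 rows in the authors' deposited table runs from 0.975 to 0.990. These values are not independent of the ones above, because they come from the same libraries and the CON reads were put back with base means of that table.

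The 3 guide entries together held 3889, 3855 and 3552 RPM in SE replicates 1 to 3 and 4552, 3982 and 3736 RPM in CON replicates 1 to 3. That is 0.377% ± 0.0185 (SD, n = 3) of the miRNA reads in SE and 0.409% ± 0.0419 (SD, n = 3) for the CON libraries, with overlapping groups. The SE minus CON difference of -325 RPM was -93.7 RPM without CON replicate 1 and -502 RPM without CON replicate 3. Median-of-ratios scaling brought it to -34.4 RPM. miR-24-3p made up 74.5% to 75.5% of this sum in the SE libraries and 70.2% to 79.9% in the CON libraries. The ratio of miR-24-3p to miR-23a-3p/23b-3p was 4.88, 4.85 and 4.99 in SE replicates 1 to 3 and 4.55, 6.60 and 5.95 in CON replicates 1 to 3. The 3 SE libraries were close to each other and lay inside the CON range. miR-24-3p stood at 7.33-fold to 8.28-fold of miR-27a-3p/27b-3p in the SE libraries and at 4.90-fold to 9.96-fold in the CON libraries. Here too the SE range lay inside the CON range.

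The ratio of miR-23a-3p/23b-3p to miR-27a-3p/27b-3p, chosen after the values were seen, was 1.70, 1.51 and 1.62 in SE replicates 1 to 3 and 1.08, 1.51 and 1.15 in CON replicates 1 to 3. The lowest SE ratio and the highest CON ratio were 1.510 and 1.508. Their exact 95% intervals, from 1.43 to 1.59 in SE replicate 2 and from 1.42 to 1.60 in CON replicate 2, nearly coincide. On the log2 scale the SE mean was 0.68 ± 0.08 (SD, n = 3) and the CON mean 0.30 ± 0.26 (SD, n = 3). The difference of 0.38 ran from 0.29 to 0.53 with 1 library left out. It was given no test.

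**Figure D3:**
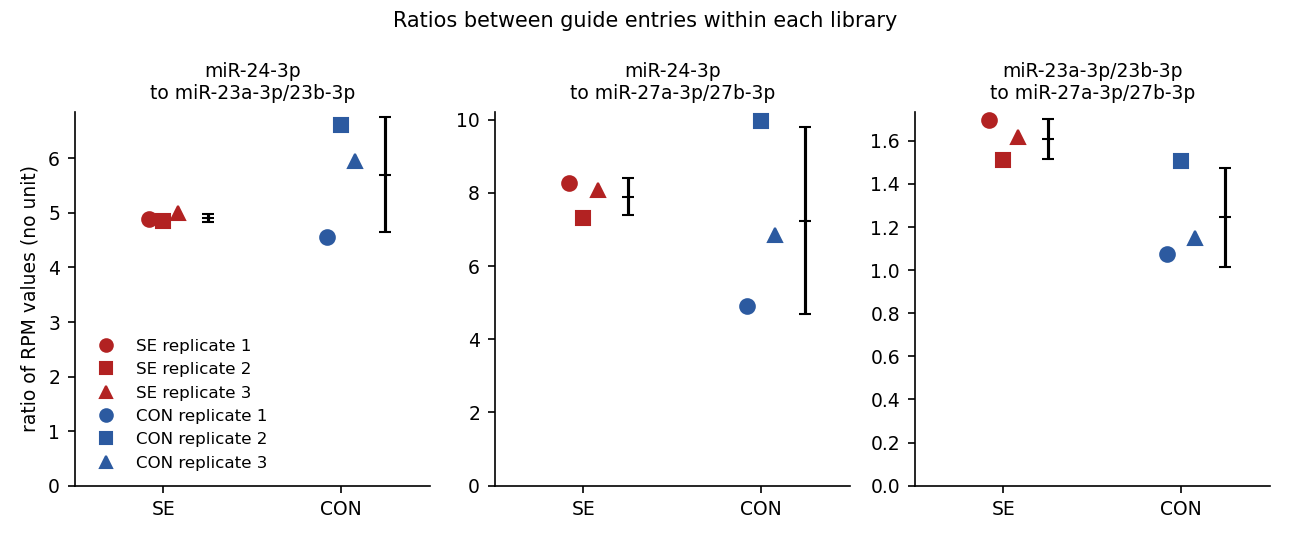
Ratios of RPM values between the guide entries (no unit, axes from 0) in each of the 3 SE and 3 CON libraries, with the mean and SD of each group beside the points. The SE libraries sit close together in all 3 panels, while CON replicates 1 and 2 lie at opposite ends of the CON group.

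The passenger strands gave the only reads that can be placed in a cluster. Over the 6 libraries the 5p arms of the miR-23b/27b/24-1 cluster had 1417 reads and those of the miR-23a/27a/24-2 cluster 115. miR-27b-5p supplied 1382 of the former and miR-27a-5p 82 of the latter. The totals therefore rest mostly on miR-27, where 5p arms made up 8.14% of the pooled reads of both arms. For miR-23 and miR-24 these shares were 0.107% and 0.0356%. The totals thus do not measure the output of a cluster or the source of the guides. The share of miR-27b-5p in the miR-27 5p reads was 91.8%, 96.0% and 95.9% in SE replicates 1 to 3 and 97.1%, 94.8% and 94.6% in CON replicates 1 to 3. The exact 95% interval of SE replicate 1, the lowest of the 6, ran from 88.9% to 94.2%, and the intervals of the other 5 libraries together covered 90.6% to 99.1%. The groups overlapped.

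The miR-24 passenger strands had the other cluster in front. miR-24-2-5p had 33 reads and miR-24-1-5p 10, or 76.7% for miR-24-2-5p with an exact 95% interval from 61.4% to 88.2% on the pooled reads. This majority was not uniform. SE replicate 1 held 21 of the 33 reads, and in SE replicate 2 and CON replicate 1 miR-24-1-5p had more reads than miR-24-2-5p. Since reads of amplified libraries need not be separate molecules, these intervals cover counting error only.

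The hairpins differed widely in how many 5p reads accompanied the 3p reads. For miR-27 the 5p arms made up 10.5%, 6.87% and 8.02% of the reads of both arms in SE replicates 1 to 3 and 4.57%, 9.84% and 9.33% in CON replicates 1 to 3. CON replicate 1, where the miR-27 guide was highest, had the lowest 5p share. It had 20.9 reads of the 3p arm per 5p read, against 8.50 to 13.6 in the other 5 libraries. The log2 ratio of 3p to 5p reads of miR-27 was 3.46 ± 0.34 (SD, n = 3) for the SE libraries and 3.62 ± 0.66 (SD, n = 3) for the CON libraries, a difference of -0.16, smaller than either SD. Its sign depended on single libraries, with 0.22 without CON replicate 1, 0.02 without SE replicate 1 and -0.38 without CON replicate 2. For miR-23 the pooled reads of the 6 libraries held 0.107% from the 5p arms, with an exact 95% interval from 0.0692% to 0.158%. For miR-24 this was 0.0356%, with an interval from 0.0257% to 0.0479%. The miR-27 share of 8.14% on the same pooled reads had an interval from 7.74% to 8.55%, apart from both.

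**Figure D4:**
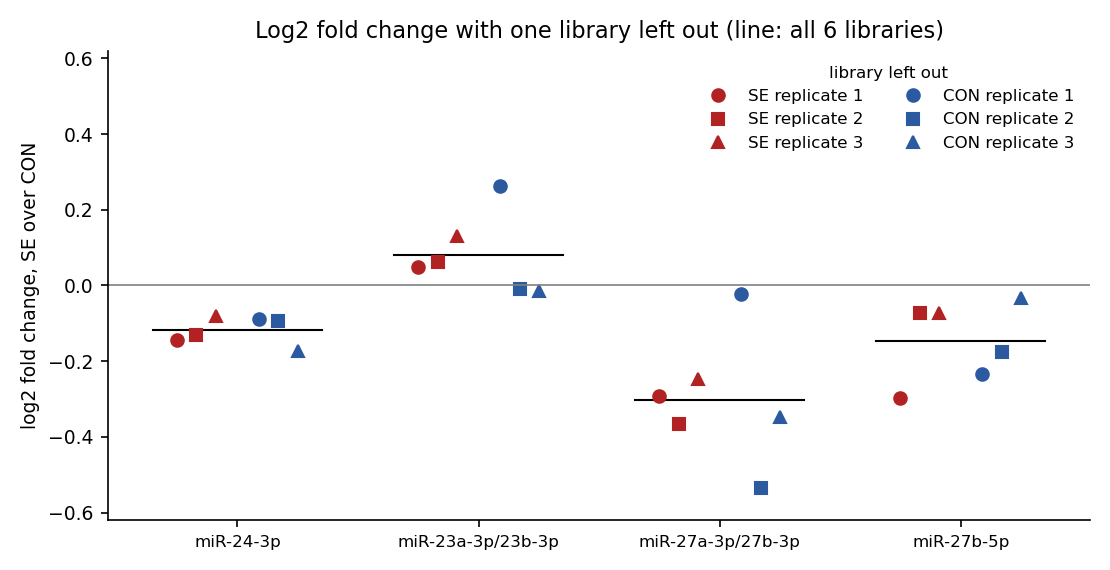
Log2 fold change, SE over CON, of the 4 tested cluster members when each of the 6 libraries is left out in turn (symbols), with a line at the value from all 6. The miR-27 guide moves between -0.54 and -0.02 and the miR-23 guide crosses 0, while miR-24-3p stays between -0.17 and -0.08.

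Both miR-24 hairpins have an antisense hairpin annotated on the opposite strand. Its product miR-3074-5p, printed with the 20 bases complementary to miR-24-3p in capitals, was looked at for that reason.
miR-3074-5p: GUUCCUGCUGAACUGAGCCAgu
It had 13 reads in SE replicate 3 and 0 in the other 5 libraries. miR-3074-1-3p had 2 reads in CON replicate 1, and miR-3074-2-3p was at 0 in all 6 libraries.

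In the RefSeq table the seeds of miR-23a-3p and of the miR-27 guides occur in no mature miRNA outside the clusters. The miR-24-3p seed also occurs in miR-5124b, miR-6369, miR-6410 and miR-6413, each at 0 in all 6 libraries. miR-128-3p, a neuronal miRNA, has a seed shifted by 1 base against that of miR-27. Both are printed with their shared run of 8 bases in capitals.
miR-27a-3p: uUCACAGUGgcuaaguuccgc
miR-128-3p: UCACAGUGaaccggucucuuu
miR-128-3p stood at 6407, 6022 and 6414 RPM in SE replicates 1 to 3 and at 10149, 6334 and 7578 RPM in CON replicates 1 to 3. Its highest library was CON replicate 1, as for miR-27. The log2 fold change was -0.33 (standard error 0.16), with a limma adjusted p of 0.570.

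Likeness of pattern was taken as the root mean square difference of log2(RPM + 1) over the 6 libraries, after each miRNA was centred on its own mean. Closest to miR-24-3p were miR-127-3p (0.051), miR-337-5p (0.058) and let-7j (0.070), against a median of 0.24 over all tested miRNAs. miR-23a-3p/23b-3p was nearest to miR-574-3p (0.095), miR-222-3p (0.097) and miR-7a-2-3p (0.101), with a median of 0.29. The pattern of miR-27a-3p/27b-3p was most like those of miR-206-3p (0.0999), miR-674-3p (0.118) and miR-128-3p (0.142), with a median of 0.37. All 3 of these had their highest value in CON replicate 1, as miR-27a-3p/27b-3p did, which goes with their being picked for likeness to it. The guides of the clusters were not each other's nearest miRNAs. miR-24-3p held place 39 by closeness to miR-23a-3p/23b-3p and place 97 by closeness to miR-27a-3p/27b-3p. miR-27a-3p/27b-3p held place 89 by closeness to miR-23a-3p/23b-3p. In the reverse direction, miR-23a-3p/23b-3p held place 80 and miR-27a-3p/27b-3p place 202 by closeness to miR-24-3p. By closeness to miR-27a-3p/27b-3p, miR-23a-3p/23b-3p held place 44.

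The cell types for which the clusters are known were followed with other miRNAs, in lists chosen with earlier results of these data known. Of 11 endothelial and mural miRNAs, 7 were tested and 0 passed by limma, against 1.03% of all tested. Their median log2 fold change was -0.12, beside -0.07 over all tested. 3 of the 7 had a positive value and 4 a negative one, and 0 had an unadjusted p under 0.05, against 9.31% of all tested. The endothelial miR-126a-3p stood at 4003 RPM ± 357 (SD, n = 3) for the SE libraries and 4811 RPM ± 716 (SD, n = 3) for the CON libraries, a log2 fold change of -0.26. The mural miR-143-3p stood at 1546 RPM ± 125 (SD, n = 3) for the SE libraries and 1796 RPM ± 434 (SD, n = 3) for the CON libraries, a log2 fold change of -0.19. The summed level of the list ran from 6419 to 7464 RPM in SE and from 6854 to 9602 RPM in CON. miR-143-5p was at 0 in all 6 libraries. miR-10a-5p of the list, under the test minimum, went the other way. It had 6.55 RPM in SE and 3.65 RPM in CON, without overlap, and is named here after its values were seen.

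Of 6 astrocyte miRNAs, all tested, 1 fell and 0 rose by limma, against 1.03% called among all tested. Their median log2 fold change was -0.48, beside -0.07 over all tested. By limma, 4 of the 6 had an unadjusted p under 0.05, against 9.31% of all tested. These 4 did not share a direction: miR-21a-5p, miR-29a-3p and miR-29c-3p were lower in SE and miR-146a-5p was higher. The list also holds miR-29b-3p, of the same family as miR-29a-3p and miR-29c-3p, and miR-449a-5p. Because the list was chosen with earlier results of these data known, its counts and median are not a test of astrocyte miRNAs. The one that fell was miR-21a-5p, a miRNA also known to rise on injury outside the brain, with 33.8 RPM ± 2.11 (SD, n = 3) for the SE libraries and 116 RPM ± 32.5 (SD, n = 3) for the CON libraries. Its log2 fold change was -1.72 (standard error 0.23) with a limma adjusted p of 1.05e-04. miR-29a-3p, the most abundant, had -0.51 and an adjusted p of 0.191. The only positive value was that of miR-146a-5p, named here after its values were seen, at 0.65 with a limma adjusted p of 0.385. The summed level ran from 7676 to 8334 RPM in SE and from 8985 to 13194 RPM in CON, without overlap, and was made up mostly of miR-29a-3p. The count of 1 became 3 without CON replicate 2. The part of either cell type in the values of the cluster members was not tested.

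**Figure D5:**
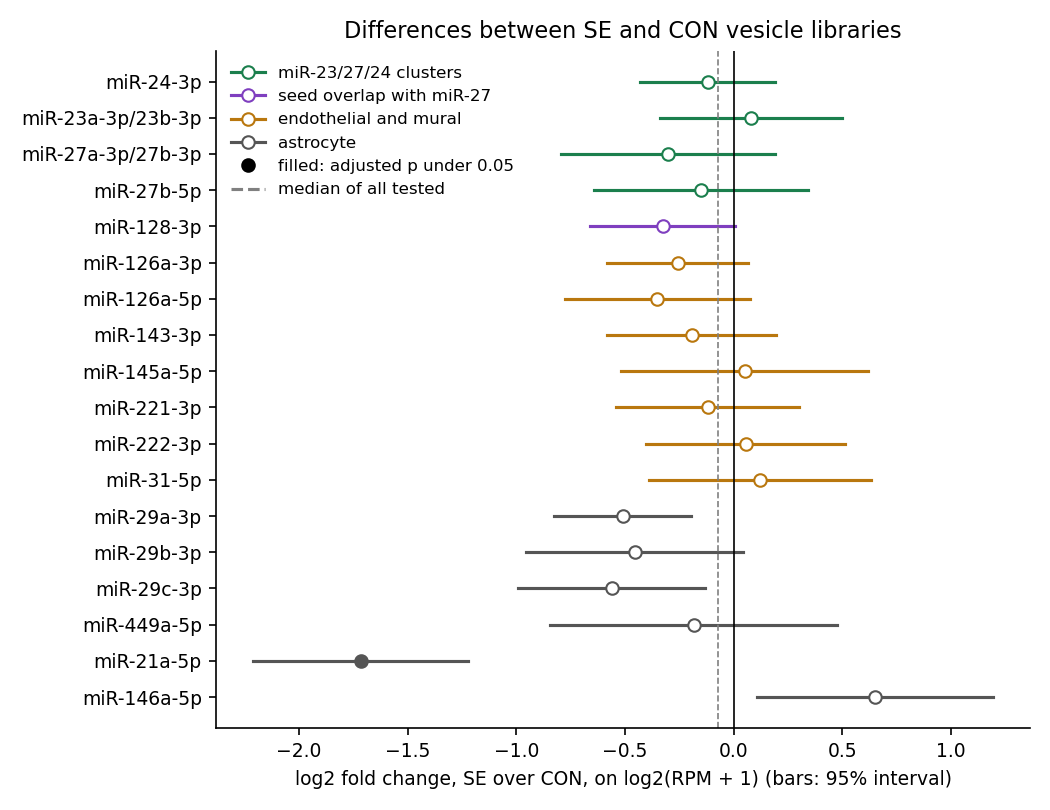
Log2 fold change, SE over CON, on log2(RPM + 1) with its 95% interval by limma-trend for the 4 tested cluster members, miR-128-3p, 7 endothelial and mural miRNAs and 6 astrocyte miRNAs, with filled symbols for an adjusted p under 0.05. The intervals of the 4 cluster members all include 0, and miR-21a-5p is the one filled symbol.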

How the data were processed

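miRNA libraries of 6 brain vesicle samples, 3 SE and 3 CON, were made with the QIAseq miRNA kit, per the labels' protocols. The submitters' processing notes name mm9 and DESeq2, with no role or version. The aligner, the counter, any use of molecular identifiers and the miRNA annotation are not given in the sources used here. The authors deposited RPM values for 1926 miRNAs. The authors' deposited fold change table for 775 miRNAs gives, per the file headers, a base mean (a signal of normalized counts), log2 fold changes with standard errors, a score (the Wald statistic), raw p-values and adjusted ones. Its values are printed as they stand.

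Each RPM value was a whole number of reads within 0.01, taking the lowest value of a column as 2 reads, and depths follow from this. The SE and the CON rows are each sorted by their own mean, so the CON rows had lost their names. Subtracting the normalized SE reads from the base mean times 6 left a CON total for each miRNA. All 687 totals above 0 found a CON row at a tolerance of 1e-05 of the total (largest difference 1.79e-09), 597 with 1 row and 90 with rows of identical reads. 665 rows changed their name.

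Groups were compared on log2(RPM + 1), a scale that understates changes of low miRNAs, with limma-trend from limma 3.58.1 under R 4.3.3. Rows averaging under 10 RPM were left out. p-values are two-sided and Benjamini-Hochberg adjusted over all 290 tested, with calls under 0.05. Ratios and sums were described without a test. limma was also run on simulated counts that had the same extra spread for all miRNAs. The spread of these libraries differs between miRNAs, so that run does not show how the fit performs on them. Alternatives were other pseudocounts, filters, scalings and limma settings, the replicate number as a block, and each library left out. limma-voom and the CON names as deposited were added after the data were examined. Other steps ran in Python 3.11.15 with pandas 2.3.3, numpy 2.4.6, matplotlib 3.10.9 and scipy 1.17.1.

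The members and lists were chosen with earlier results of these data known. Named miRNAs were the members, antisense products, miRNAs sharing a seed, miR-128-3p, the 3 nearest patterns per guide, and the called or otherwise the 2 most abundant members of each list.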

Additional observations from a re-analysis of the deposited data

How the results depend on the processing

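0 of the 67 alternatives run for the 4 tested cluster members passed an adjusted p under 0.05, and 63 kept the direction. The exceptions were miR-24-3p with quantile normalization (0.11) and miR-23a-3p/23b-3p without CON replicate 2 (-0.0084), without CON replicate 3 (-0.014) and with the CON names left as in the file (-0.33). Changing the filter, the trend or the robust setting, or adding the replicate block, left each log2 fold change as in the main fit. Those settings could not have changed a direction, so the 63 overstates how often the direction was put to a test. With 1 library left out, miR-23a-3p/23b-3p ran from -0.01 to 0.26, miR-27a-3p/27b-3p from -0.54 to -0.02, miR-24-3p from -0.17 to -0.08 and miR-27b-5p from -0.30 to -0.03. miR-27b-5p was not tested with a filter of 50 RPM, which it does not reach. The count of calls over all miRNAs was 3, was 2 with a filter of 50 RPM, 4 with no filter, with a pseudocount of 5 RPM, with robust limma-trend and at an adjusted p under 0.1, ran from 3 to 6 with 1 library left out (6 without CON replicate 2, 5 without CON replicate 3), and was 0 of 289 with those names left as in the file, where 2 had an unadjusted p under 0.05. The astrocyte count of 1 ran from 1 to 3. The cause of these changes was not tested.

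The replicate block gave 3 calls over all miRNAs and 0 of the 4 members, with log2 fold changes of -0.12, 0.08, -0.30 and -0.15 as without it. Same-numbered libraries did not deviate together (correlations across miRNAs of -0.42, -0.25 and 0.04). Each SE library correlated best with a CON library of another number, for SE replicate 3 at only 0.13. Deviations from a mean of 3 libraries constrain each other, so these correlations cannot show whether the samples were paired. The planned ratio of miR-27b-3p to miR-27a-3p was not run because the authors merged these names. For miR-23 and miR-24, 5p arms at 0 left no arm ratio in 3 and 2 libraries. No group was tested for outlying libraries, because each has 3.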
